A study of Homo sapiens with 11 samples.

Results

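The RUNX family and its core binding factor partners were followed as 7 genes, taken from the 38557 annotated genes of the count table by their symbols. They are RUNX1, RUNX2 and RUNX3, which encode the DNA-binding subunits, CBFB, which encodes the shared beta subunit, and RUNX1T1, CBFA2T3 and CBFA2T2, which encode the ETO family of corepressors. RNA sequencing had been performed on MOLM-13, an established human acute myeloid leukemia cell line that carries a KMT2A::MLLT3 fusion. All groups were kept for 72 h, either with the diluent DMSO (4 libraries), with MI-503 at 1 µM (4 libraries), or with MI-503 at 1 µM and PR-957, also called ONX-0914, at 100 nM (3 libraries, numbered 1, 2 and 4). MI-503 blocks the binding of Menin to KMT2A, and PR-957 inhibits PSMB8, a catalytic subunit of the immunoproteasome. The group given both compounds is called the combination here. A group given PR-957 alone was not analysed here, so the effect of PR-957 was read only on top of MI-503. All groups are a single cell line, and the labels do not say whether replicates came from separate cultures, so p-values measure only the spread between these libraries.

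RUNX proteins bind DNA through the Runt domain and do so tightly only as a heterodimer with CBFB, which itself does not touch DNA. RUNX1 is required for the emergence of blood stem cells and is often mutated or fused in myeloid leukemia, RUNX2 is best known as the master regulator of bone formation, and RUNX3 acts in T cells, natural killer cells and neurons. The ETO proteins bind no DNA on their own and bring SIN3 and histone deacetylase complexes to other transcription factors, and RUNX1T1 is the partner of RUNX1 in the t(8;21) fusion AML1-ETO.

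RUNX genes are transcribed from a distal and a proximal promoter, and RUNX proteins are known to recognize the hexamer TGTGGT. RefSeq start sites (GRCh38.p14) were found for 5 of the 7 genes, with 7 entries in all. In the 250 bases before each start site, both strands were searched for TGTGGT and for the variant TGCGGT, which do not overlap with each other. The windows before the distal RUNX2 start site (base 45328330 of chromosome 6) and the distal RUNX3 start site (base 24965010 of chromosome 1) each held 2 matches to TGTGGT, and all 4 matches lay on the strand opposite to the gene. These 2 windows are printed because they were the only ones with a match, and a link to expression was not tested. Each sequence runs 5′ to 3′ on the strand of its gene up to the base before the start site, and the capitals mark ACCACA, the reverse complement of TGTGGT. The matches lay 191 to 186 and 87 to 82 bases before the RUNX2 start site, and 131 to 126 and 123 to 118 bases before the RUNX3 start site.
RUNX2 distal promoter, chr6:45328080-45328329, plus strand: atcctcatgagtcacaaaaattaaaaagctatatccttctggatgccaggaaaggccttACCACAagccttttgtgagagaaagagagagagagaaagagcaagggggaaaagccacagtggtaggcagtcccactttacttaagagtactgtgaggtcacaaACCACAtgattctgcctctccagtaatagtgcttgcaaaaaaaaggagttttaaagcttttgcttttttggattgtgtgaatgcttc
RUNX3 distal promoter, chr1:24965011-24965260, minus strand: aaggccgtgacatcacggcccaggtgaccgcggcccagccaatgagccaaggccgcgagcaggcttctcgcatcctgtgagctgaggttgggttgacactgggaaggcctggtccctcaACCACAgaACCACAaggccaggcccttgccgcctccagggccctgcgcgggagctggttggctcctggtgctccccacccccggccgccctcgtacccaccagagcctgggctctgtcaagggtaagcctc
Neither motif was present in the windows of the other 5 entries, which are the RUNX1, CBFA2T3 and CBFA2T2 entries and the proximal RUNX2 and RUNX3 entries. The RUNX1, CBFA2T3 and CBFA2T2 start sites lay 160635, 35857 and 72272 bases from the annotated 5′ ends of these genes. The windows before those 5′ ends, including the distal RUNX1 promoter, were thus not searched. Over all 35116 promoters of that table, 11% held TGTGGT, 5.84% held TGCGGT, and 1.63% held at least 2 matches to these motifs. A match describes the letters only and is no evidence of binding.

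Library totals ran from 18891243 to 41153974 counted fragments. Levels are given in counts-per-million units (CPM), relative to a library's total after TMM scaling. Within the DMSO and MI-503 groups, replicate counts differed by 1.71 to 5.97 chi-square units per degree of freedom. In the combination, replicate 1 stood apart from replicates 2 and 4 with 19.4 and 33.3 units, against 4.59 between those 2 libraries. Fitted changes and list counts of the combination are therefore also given without replicate 1. As all libraries share a fit, leaving it out also moved MI-503 against DMSO. The median log2 fold change of all tested genes there went from −0.028 to 0.017. RUNX3 went from −0.11 to −0.06 and CBFA2T2 from 0.23 to 0.27. The myeloid identity of the cells was checked with 9 markers, all detected. Their summed level was 1304 to 1385 CPM in DMSO, 1963 to 2129 CPM in MI-503 and 2147 to 4634 CPM in the combination. CEBPA weighed most in DMSO, with a mean of 769 CPM. LYZ averaged 95.2 CPM in DMSO, 376 CPM in MI-503 and 1641 CPM in the combination, where it ranged from 599 to 2513 CPM. Against MI-503, 6 of the 9 markers were higher in the combination and 2, MPO and FCGR1A, were lower. All 4 T cell, all 4 erythroid and all 7 stromal and epithelial markers stayed below 1 CPM in every library. The 4 B cell markers summed to 48.8 to 51.5 CPM in DMSO, 33.6 to 34.2 CPM in MI-503 and 24.1 to 27.7 CPM in the combination, while MS4A1 among them was at 0. The 3 megakaryocyte markers summed to at most 1.47 CPM in any library. The part of these markers in the results below was not tested, and in bulk RNA fewer cells of a type and less RNA per cell cannot be told apart.

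Of the 7 genes, 6 were expressed well above the filter in every library, and RUNX1T1 had no count in any. After MI-503, CBFB and RUNX2 fell and CBFA2T3 and CBFA2T2 rose, while RUNX1 and RUNX3 did not pass the test. In the combination all 3 RUNX genes and CBFB were lower than in DMSO and lower than in MI-503, and CBFA2T2 was higher than in either. Changes were below 2-fold in all cases. With edgeR's quasi-likelihood test and Benjamini-Hochberg adjustment, MI-503 against DMSO called 2 members higher and 2 lower, against a background of 22.0% of the 14683 tested genes called higher and 29.3% called lower. The combination against DMSO called 2 members higher and 4 lower (background 31.7% higher and 32.8% lower), and the combination against MI-503 called 1 higher and 5 lower (background 23.6% higher and 23.8% lower). These counts were the same without combination replicate 1. The background is high in all 3 comparisons. The size of a change is therefore also set against the median absolute log2 fold change of all tested genes. That median was 0.24 for MI-503 against DMSO, 0.36 for the combination against DMSO and 0.23 for the combination against MI-503. Called changes smaller than this were CBFA2T2 after MI-503, and RUNX1, RUNX3 and CBFA2T3 in the combination against DMSO. RUNX1 and CBFB in the combination against MI-503 were also smaller. The other called changes were larger than the median of their comparison. These comparisons share libraries, so their results are not independent of each other.

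**Figure D1:**
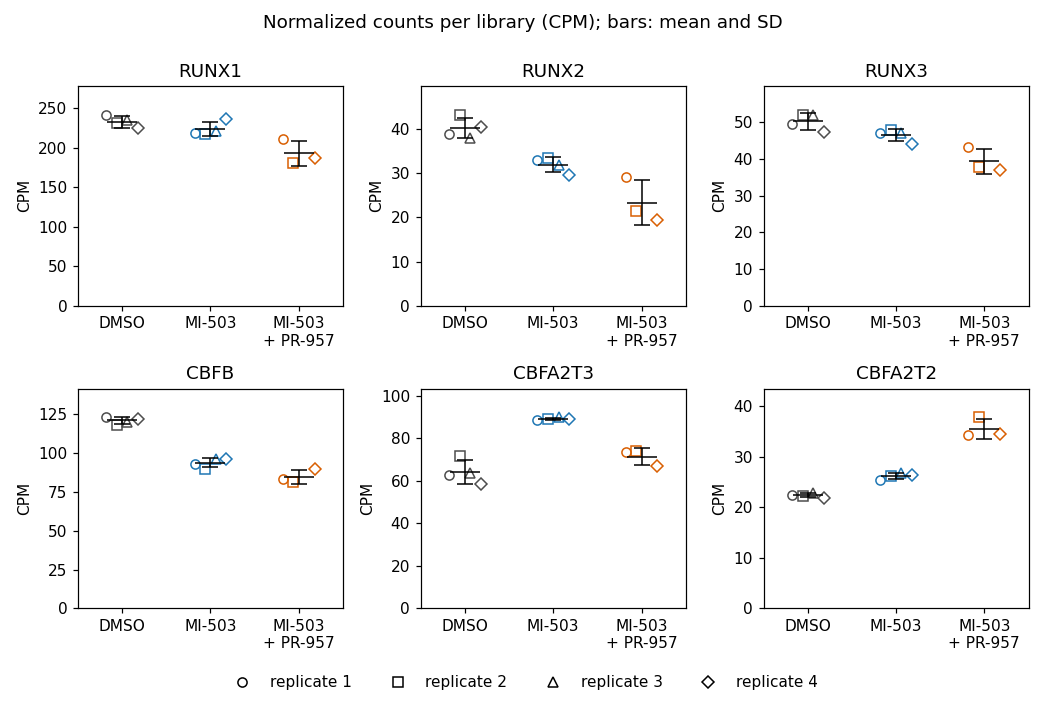
Normalized level (CPM, y axis from 0) of the 6 expressed genes in each library, by treatment group on the x axis; symbols mark the replicate number, and the bars give the mean and SD of each group. RUNX1, RUNX2, RUNX3 and CBFB had their lowest means in the combination (193, 23.3, 39.4 and 84.6 CPM), CBFA2T3 had its highest mean in MI-503 (89.3 CPM) and CBFA2T2 in the combination (35.5 CPM).

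RUNX1 (chr21:34787801-35049334, minus strand, hg38) was the RUNX gene with the most counts, from 3617 to 8926 per library. Its level in DMSO replicates 1 to 4 was 242, 231, 235 and 225 CPM. MI-503 replicates 1 to 4 had 219, 217, 221 and 236 CPM, and combination replicates 1, 2 and 4 had 211, 181 and 187 CPM. DMSO and MI-503 overlapped through MI-503 replicate 4, whereas all combination libraries lay below every library of the other groups. The mean was 233 CPM ± 7.40 (SD, n = 4) in DMSO, 224 ± 8.78 (SD, n = 4) in MI-503 and 193 ± 15.5 (SD, n = 3) in the combination. RUNX1 did not pass the test after MI-503 (log2 fold change −0.06, 95% interval −0.17 to 0.04, edgeR adjusted p = 0.296). In the combination it fell by 17.2% against DMSO (log2 fold change −0.27, SE 0.05, edgeR adjusted p = 0.000223) and by 13.5% against MI-503 (log2 fold change −0.21, SE 0.05, edgeR adjusted p = 0.00343). Without combination replicate 1 these differences were −0.32 and −0.30 on the log2 scale. RUNX1-IT1, an intronic transcript of the locus, stayed between 0.251 and 0.879 CPM and passed the test in none of the comparisons by edgeR's adjusted p (0.286, 0.806 and 0.207).

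RUNX2 (chr6:45328317-45551082, plus strand) had the largest decrease of the members in both combination comparisons and stepped down from DMSO to MI-503 and again to the combination. Levels were 38.9, 43.2, 38.0 and 40.3 CPM in DMSO replicates 1 to 4 and 33.0, 33.4, 31.8 and 29.5 CPM in MI-503 replicates 1 to 4. The combination gave 29.0 CPM in replicate 1, 21.4 CPM in replicate 2 and 19.4 CPM in replicate 4. No library of a group overlapped with another group, although combination replicate 1 sat close to the lowest MI-503 library. MI-503 lowered the mean from 40.1 CPM ± 2.27 (SD, n = 4) to 31.9 ± 1.74 (SD, n = 4), so that RUNX2 fell by 0.33 on the log2 scale (SE 0.09, edgeR adjusted p = 0.00622). The combination mean was 23.3 CPM ± 5.03 (SD, n = 3), which is 41.2% below DMSO when taken from the fit, so that RUNX2 fell by 0.77 on the log2 scale (SE 0.10, edgeR adjusted p = 3.75e-06). This fall was larger in size than that of 80.2% of all tested genes, and it was 0.96 without combination replicate 1 (edgeR adjusted p = 4.17e-11). Against MI-503, RUNX2 fell by 0.44 on the log2 scale (SE 0.10, edgeR adjusted p = 0.00184), and without combination replicate 1 it fell by 0.68 (edgeR adjusted p = 4.77e-08).

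RUNX3 (chr1:24899511-24965158, minus strand) followed RUNX2 with smaller steps. DMSO replicates 1 to 4 had 49.6, 52.0, 52.1 and 47.4 CPM, MI-503 replicates 1 to 4 had 47.2, 47.9, 47.1 and 44.2 CPM, and combination replicates 1, 2 and 4 had 43.3, 37.7 and 37.1 CPM. MI-503 replicate 2 lay above DMSO replicate 4, and the combination overlapped with neither group. The means were 50.3 CPM ± 2.26 (SD, n = 4), 46.6 ± 1.63 (SD, n = 4) and 39.4 ± 3.40 (SD, n = 3). MI-503 against DMSO gave a log2 fold change of −0.11 with a 95% interval of −0.22 to 0.01 (edgeR adjusted p = 0.112). In the combination RUNX3 fell by 0.35 against DMSO (SE 0.06, edgeR adjusted p = 7.35e-05) and by 0.24 against MI-503 (SE 0.06, edgeR adjusted p = 0.0034), both on the log2 scale. Leaving out combination replicate 1 gave −0.41 and −0.34. That RUNX2 passed the test after MI-503 while RUNX1 and RUNX3 did not is no test of a difference between the genes, which was not made.

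Per kilobase of annotated exon, where genes can be compared, the 3 RUNX genes summed to 36.2 CPM per kb ± 0.871 (SD, n = 4) in DMSO, 33.3 ± 0.131 (SD, n = 4) in MI-503 and 27.8 ± 2.77 (SD, n = 3) in the combination. RUNX2 made up 18.3% ± 1.06 (SD, n = 4) of that sum in DMSO, 15.8% ± 0.911 (SD, n = 4) in MI-503 and 13.7% ± 1.61 (SD, n = 3) in the combination. The RUNX2 share of every treated library was below the lowest DMSO library (17.2%), and MI-503 (14.5 to 16.6%) and the combination (12.2 to 15.4%) overlapped. RUNX1 held most of the sum, with 53.4% in DMSO, 55.6% in MI-503 and 57.5% in the combination, and the RUNX3 share moved only from 28.3% to 28.6% and 28.9%. These shares are a description and were not tested. With the MANE Select transcript length in place of all exons the RUNX2 share was 12.5%, 10.7% and 9.11%, the same order at lower values.

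CBFB (chr16:67029149-67101058, plus strand) gave the tightest groups among the decreasing genes. Its level was 123, 118, 120 and 122 CPM in DMSO replicates 1 to 4, then 93.2, 89.6, 96.2 and 95.9 CPM in MI-503 replicates 1 to 4, and 83.2, 81.1 and 89.6 CPM in combination replicates 1, 2 and 4. DMSO lay far above both treated groups, while combination replicate 4 and MI-503 replicate 2 were equal at the precision printed. MI-503 reduced the mean from 121 CPM ± 2.26 (SD, n = 4) to 93.8 ± 3.06 (SD, n = 4), so that CBFB fell by 22.4% (log2 fold change −0.37, SE 0.04, edgeR adjusted p = 1.7e-06). The combination mean was 84.6 CPM ± 4.42 (SD, n = 3), and CBFB fell by 29.9% against DMSO (log2 fold change −0.51, SE 0.05, edgeR adjusted p = 3.24e-08). Most of this fall was thus already present with MI-503. The further fall against MI-503 was 0.15 on the log2 scale (SE 0.05, edgeR adjusted p = 0.0136), and it was 0.23 without combination replicate 4 (edgeR adjusted p = 0.000643). Without combination replicate 1, CBFB fell by 0.48 against DMSO and by 0.16 against MI-503. CBFB relative to the RUNX sum, both in CPM per kb, was 1.07 ± 0.0414 (SD, n = 4) in DMSO and 0.899 ± 0.0290 (SD, n = 4) in MI-503, which did not overlap. In the combination this ratio was 0.977 ± 0.117 (SD, n = 3) with a range of 0.855 to 1.09 that spanned both. The ratio depends on the length used and was 0.670, 0.558 and 0.600 with MANE Select lengths, again lowest in MI-503.

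**Figure D2:**
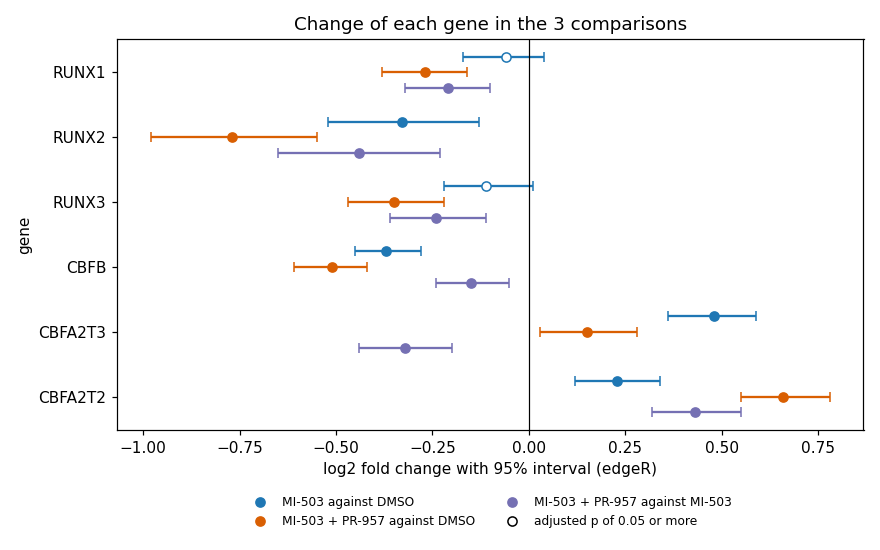
Fitted log2 fold change (x axis) with its 95% interval for the 6 expressed genes (y axis) in the 3 comparisons, marked by colour; open points did not pass the test. RUNX2 fell by 0.77 in the combination against DMSO, CBFA2T2 rose by 0.66, and CBFA2T3 changed from 0.48 after MI-503 to 0.15 in the combination.

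RUNX1T1 on chromosome 8, the founding ETO gene, had 0 counts in all 11 libraries. A count of 0 allows up to 3 counts per library, or 0.0729 to 0.159 CPM depending on the library, and this covers counting error only. No fold change was computed for it. The ETO family was thus represented by CBFA2T3 and CBFA2T2, which differed in their response.

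CBFA2T3 (chr16:88874858-88977207, minus strand), also known as ETO2, acts in blood stem cells and in the erythroid lineage. DMSO replicates 1 to 4 had 63.0, 71.6, 63.8 and 58.5 CPM, MI-503 replicates 1 to 4 had 88.6, 89.2, 90.0 and 89.4 CPM, and combination replicates 1, 2 and 4 had 73.5, 73.9 and 66.9 CPM. All MI-503 libraries were above all others, and the combination overlapped with DMSO through DMSO replicate 2. MI-503 raised the mean from 64.2 CPM ± 5.43 (SD, n = 4) to 89.3 ± 0.55 (SD, n = 4), which was 0.48 higher on the log2 scale (SE 0.05, edgeR adjusted p = 1.44e-06) and larger in size than 78.4% of the tested genes. In the combination the mean was 71.4 CPM ± 3.90 (SD, n = 3), which was 20% below MI-503 in the fit, so that CBFA2T3 fell by 0.32 on the log2 scale (SE 0.06, edgeR adjusted p = 0.000202). Against DMSO it was 0.15 higher on the log2 scale (SE 0.06, edgeR adjusted p = 0.0281). That last call was not stable, since edgeR's adjusted p was 0.067, 0.0534 and 0.0999 without DMSO replicate 1, 3 or 4, 0.103 without combination replicate 2, and 0.0554 with only these 2 groups in the fit. Without combination replicate 1, CBFA2T3 was 0.15 higher than in DMSO (edgeR adjusted p = 0.0368) and fell by 0.37 against MI-503 (edgeR adjusted p = 1.7e-05). Over all alternatives edgeR's, limma's and DESeq2's adjusted p ranged from 0.00224 to 0.103.

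CBFA2T2 (chr20:33490070-33650031, plus strand), also known as MTGR1, had the lowest level per kilobase of the 6 genes in DMSO and was the one that rose in every comparison. It stood at 22.5, 22.3, 22.8 and 21.8 CPM in DMSO replicates 1 to 4, at 25.3, 26.2, 26.8 and 26.4 CPM in MI-503 replicates 1 to 4, and at 34.3, 37.8 and 34.5 CPM in combination replicates 1, 2 and 4. The 3 groups did not overlap. Means were 22.4 CPM ± 0.439 (SD, n = 4), 26.2 ± 0.652 (SD, n = 4) and 35.5 ± 1.97 (SD, n = 3). The log2 fold change was 0.23 after MI-503 (SE 0.05, edgeR adjusted p = 0.0015). In the combination it was 0.66 against DMSO (SE 0.05, edgeR adjusted p = 1.27e-08), a 1.58-fold level, and 0.43 against MI-503 (SE 0.05, edgeR adjusted p = 5.27e-06). Without combination replicate 1 these values were 0.71 and 0.43. Per kilobase, CBFA2T3 exceeded CBFA2T2 by a ratio of 4.70 ± 0.375 (SD, n = 4) in DMSO, 5.59 ± 0.108 (SD, n = 4) in MI-503 and 3.30 ± 0.188 (SD, n = 3) in the combination. The ranges of that ratio, 4.40 to 5.25, 5.50 to 5.74 and 3.18 to 3.51, did not overlap.

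Set side by side per kilobase of all annotated exons, the order in DMSO was CBFB (38.5 CPM per kb ± 0.722), RUNX1 (19.3 ± 0.612), CBFA2T3 (11.1 ± 0.942), RUNX3 (10.2 ± 0.461), RUNX2 (6.62 ± 0.375) and CBFA2T2 (2.37 ± 0.0465; SD, n = 4 for each). CBFA2T3 and RUNX3 overlapped, with ranges of 10.1 to 12.4 and 9.66 to 10.6 CPM per kb, and no other neighbors in that order did. In the combination RUNX2 (3.20 to 4.78 CPM per kb) and CBFA2T2 (3.63 to 4.00 CPM per kb) overlapped, at means of 3.84 and 3.76. With the MANE Select length, which is 5971 bases for RUNX1 against 12089 bases of all exons, RUNX1 and CBFB were level in DMSO at 39.1 ± 1.24 and 38.9 ± 0.729 CPM per kb (SD, n = 4). The order of these leading genes therefore depends on the length used, and gene counts do not show which transcripts were present. RUNX1 was no longer level with CBFB in MI-503, where the ranges with that length were 36.4 to 39.6 and 28.9 to 31.0 CPM per kb.

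**Figure D3:**
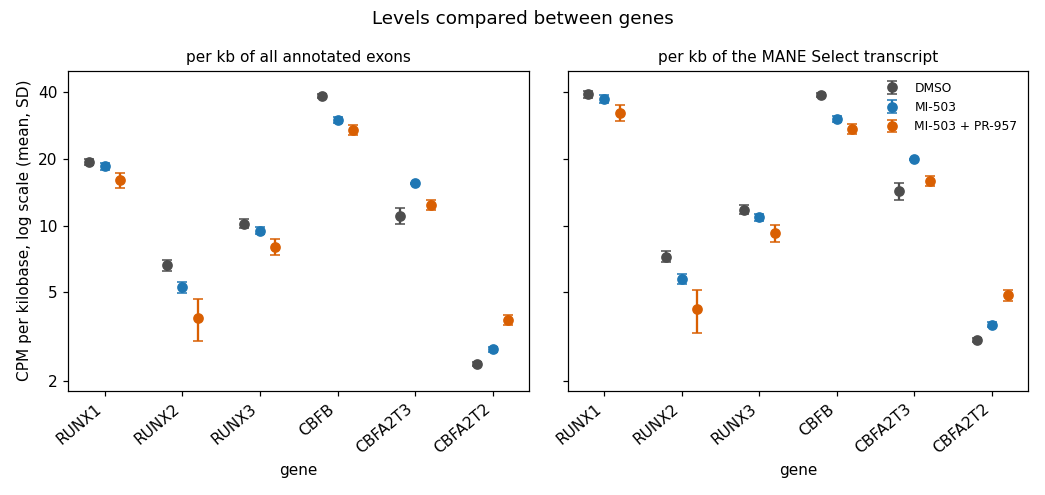
Mean level and SD of the 6 genes (x axis) in CPM per kilobase on a log scale (y axis), by group, with the length of all annotated exons on the left and of the MANE Select transcript on the right. CBFB led at 38.5 CPM per kb in DMSO with all exons, and RUNX1 reached 39.1 CPM per kb with the MANE Select length.

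Part of the exons of 3 members overlaps with a gene on the opposite strand, and counting ignored strand and dropped fragments that touched several genes. RUNX2 shared 160 exon bases (2.64%) with SUPT3H, RUNX3 shared 196 bases (4%) with LOC105376878, and CBFA2T3 shared 182 bases (3.16%) with LOC101927793. SUPT3H, a subunit of the SAGA coactivator complex, moved in the direction opposite to RUNX2 in the combination. After MI-503 it did not pass the test (log2 fold change 0.17, edgeR adjusted p = 0.261). It was at 7.10 CPM ± 1.39 (SD, n = 4) in DMSO, 7.96 ± 0.768 (SD, n = 4) in MI-503 and 10.2 ± 0.741 (SD, n = 3) in the combination, and the combination exceeded DMSO by 0.52 on the log2 scale (SE 0.13, edgeR adjusted p = 0.00156). LOC101927793 rose with CBFA2T3 after MI-503, from 1.74 CPM ± 0.478 (SD, n = 4) to 3.34 ± 0.483 (SD, n = 4), which was 0.93 on the log2 scale (SE 0.19, edgeR adjusted p = 0.000648). Fragments that touched exons of both CBFA2T3 and LOC101927793 were dropped and thus counted for neither gene. Whether their rises are linked was not tested. RUNX2-AS1 and LINC01426 had at most 7 and 3 counts in any library.

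As a description over the 11 libraries, which share the 3 treatments, RUNX2 and RUNX3 had the highest Pearson r of log2 CPM among member pairs (0.96), followed by RUNX1 with RUNX3 (0.89) and RUNX1 with RUNX2 (0.87). CBFB correlated with the RUNX genes at 0.74 to 0.80. CBFA2T2 ran opposite to RUNX1, RUNX2 and RUNX3 (r = −0.88, −0.92 and −0.90), whereas r between CBFA2T3 and CBFA2T2 was 0.20. Among 10040 tested genes that averaged 5 CPM or more, the profiles most like RUNX1 were those of the kinetochore gene CENPH and of ESPL1, which encodes separase (r = 0.96 for both). RUNX2 was closest to TRIM9 and DZIP1 (r = 0.99 for both), and RUNX3 to AK1 and the replication licensing factor CDT1 (r = 0.97 for both). CBFB was closest to NDUFV2, a subunit of respiratory complex I (r = 0.995), and PSMG1, a chaperone of proteasome assembly (r = 0.99). CBFA2T3 was closest to PLEKHG4 and EVL (r = 0.98 for both), and CBFA2T2 to TECPR1 and ARAP1 (r = 0.99 for both). With 3 treatment levels many genes share a profile, and 1686 genes had r over 0.9 with CBFB, against 120 with CBFA2T3.

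Cofactors that act on RUNX proteins were examined as a list of 21 genes, among them acetyltransferases, arginine methyltransferases, TLE corepressors and ubiquitin ligases, of which 19 were tested. After MI-503, 5 of the 19 were higher and 9 lower (background 22.0% and 29.3%), with a median log2 fold change of −0.15 against −0.03 for all tested genes. HIPK2, a kinase that phosphorylates RUNX1, had the smallest adjusted p and rose from 21.2 CPM ± 0.637 (SD, n = 4) in DMSO to 52.6 ± 3.31 (SD, n = 4) in MI-503 and 60.9 ± 6.16 (SD, n = 3) in the combination, with edgeR adjusted p = 1.21e-10 and 1.1e-11 against DMSO. TLE1, a Groucho type corepressor that binds the RUNX C-terminus, rose by 0.65 on the log2 scale after MI-503 (edgeR adjusted p = 1.83e-08). PRMT1, an arginine methyltransferase of RUNX1, fell by 0.36 after MI-503 and by 0.59 in the combination against DMSO, both on the log2 scale (edgeR adjusted p = 1.14e-06 and 3.6e-09). In the combination against DMSO, 6 were higher and 9 lower (background 31.7% and 32.8%, median −0.13), a share of higher calls of 31.6%, close to the background. Against MI-503, 2 were higher and 8 lower (background 23.6% and 23.8%, median −0.08). SKP2, a ubiquitin ligase subunit, fell by 0.53 on the log2 scale in the combination against MI-503 (edgeR adjusted p = 7.99e-08), and the histone methyltransferase SUV39H1 fell by 0.37 (edgeR adjusted p = 4.12e-05). Without combination replicate 1, 6 were higher and 8 lower against DMSO, and against MI-503 10 were lower and the other 9 did not pass the test.

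Partners of the ETO corepressors were a list of 18 genes, of which 17 were tested. MI-503 against DMSO called 5 higher and 6 lower, or 29.4% and 35.3%, near the background of 22.0% and 29.3%, with a median log2 fold change of −0.09. The ETO-binding repressors ZBTB16 and BCL6 rose after MI-503 from 4.13 to 7.86 CPM and from 5.24 to 11.4 CPM (edgeR adjusted p = 2.28e-06 and 6.21e-06). In the combination, 5 were higher and 9 lower against DMSO (background 31.7% and 32.8%, median −0.24), and 2 were higher and 9 lower against MI-503 (background 23.6% and 23.8%, median −0.16). Leaving out combination replicate 1, 5 were higher and 9 lower against DMSO, and 2 were higher and 11 lower against MI-503. In that fit, MI-503 against DMSO called 6 higher and 6 lower. The deacetylase gene HDAC2 fell by 0.44 on the log2 scale against MI-503 (SE 0.04, edgeR adjusted p = 5.44e-07), the repressor GFI1 fell by 0.50 (SE 0.07, edgeR adjusted p = 9.05e-06), and SIN3B rose by 0.43 (SE 0.05, edgeR adjusted p = 3.15e-06).

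Transcription factors that act beside RUNX1 in blood cells were a list of 17, of which 14 were tested. TAL1, GATA1 and ERG failed the filter, with means below 0.1 CPM in all groups. After MI-503, 9 were higher and 3 lower (background 22.0% and 29.3%, median log2 fold change 0.22). Without combination replicate 1, 11 were higher and 3 lower in that comparison. SPI1 and CEBPA, which were among the higher genes, are also among the 9 myeloid markers given above. The part of the marker change in this list was not tested. In the combination 6 were higher and 4 lower against DMSO, or 42.9% and 28.6% (background 31.7% and 32.8%, median 0.10). LYL1, a relative of TAL1, rose from 88.4 to 126 CPM after MI-503 (edgeR adjusted p = 5.69e-08), and LMO2 rose from 112 CPM in DMSO to 136 CPM and 158 CPM. GATA2 fell from 12.2 CPM ± 1.01 (SD, n = 4) to 7.92 ± 0.643 (SD, n = 4) and 5.45 ± 0.496 (SD, n = 3), by 1.17 on the log2 scale in the combination against DMSO (SE 0.10, edgeR adjusted p = 2.37e-08). ELF1 and SSBP4 fell after MI-503 by 0.40 and 0.38 on the log2 scale (edgeR adjusted p = 6.43e-07 and 1.22e-06). Against MI-503, 3 of the 14 were higher and 8 lower in the combination (background 23.6% and 23.8%, median −0.14), and the share of higher calls, 21.4%, was near the background. When combination replicate 1 was left out, 5 were higher and 4 lower against DMSO, and 4 were higher and 9 lower against MI-503.

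Known targets of RUNX1 and its partners in blood cells were a list of 19 genes, of which 14 were tested. The list was not split by whether RUNX proteins activate or repress a gene, so its counts and medians do not measure RUNX activity. After MI-503, 10 of the 14 were higher and 1 was lower (background 22.0% and 29.3%). The median log2 fold change was 0.83 against −0.03 for all tested genes. Without combination replicate 1, 11 were higher and 1 lower in that comparison. CSF1R, the receptor for macrophage colony-stimulating factor, rose from 6.48 CPM ± 0.995 (SD, n = 4) to 34.9 ± 1.29 (SD, n = 4), a rise by 2.43 on the log2 scale (SE 0.08, edgeR adjusted p = 2.26e-12). NFE2, a transcription factor, rose from 39.2 to 111 CPM, and the scavenger receptor gene CD36 rose from 3.85 to 16.4 CPM (edgeR adjusted p = 8.09e-11 and 3.12e-10). In the combination, 6 were higher and 1 lower against DMSO (background 31.7% and 32.8%, median 0.41), and 2 were higher and 6 lower against MI-503 (background 23.6% and 23.8%, median −0.31). When combination replicate 1 was left out, 8 were higher and 1 lower against DMSO, and 2 were higher and 6 lower against MI-503. The 2 genes that rose further were CSF1R, at 55.5 CPM ± 3.72 (SD, n = 3), and the integrin gene ITGAX, which went from 4.82 CPM in DMSO to 18.2 CPM in MI-503 and 46.7 CPM in the combination. Both were higher against MI-503 by edgeR's adjusted p (1.06e-06 and 5.62e-07). CD4 rose from 222 to 281 CPM after MI-503 (edgeR adjusted p = 2.63e-06). In the combination it fell by 0.42 on the log2 scale against MI-503 (SE 0.04, edgeR adjusted p = 8.28e-07). At 210 CPM there, CD4 did not pass the test against DMSO (log2 fold change −0.08, edgeR adjusted p = 0.107). CSF1R and MPO are also among the 9 myeloid markers given above, of which 9 were higher after MI-503, 7 were higher in the combination against DMSO, and 6 were higher and 2 lower in the combination against MI-503. The part of that marker change in the target list was not tested.

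**Figure D4:**
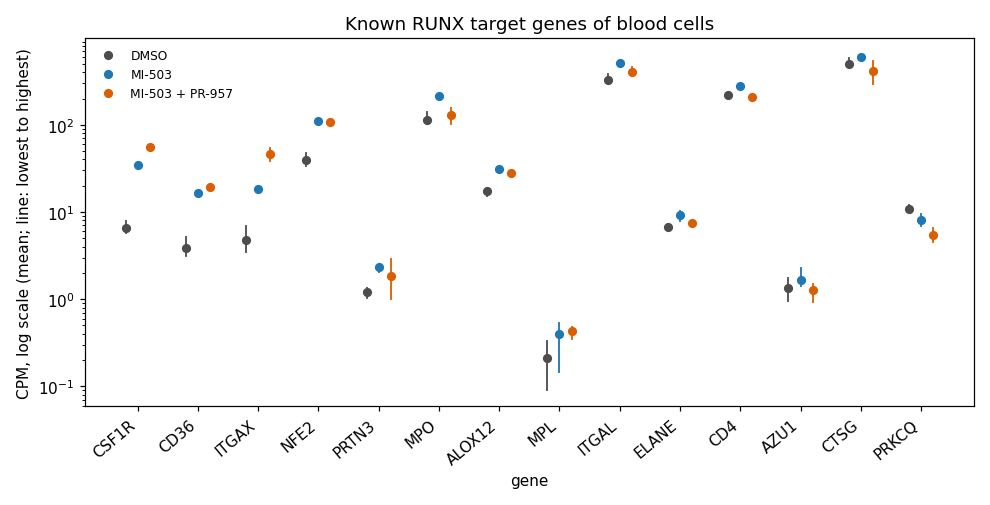
Level in CPM on a log scale (y axis) of the 14 tested RUNX target genes of blood cells (x axis, ordered by their change after MI-503); points are group means, and lines run from the lowest to the highest library. CSF1R, CD36, ITGAX and NFE2 rose after MI-503, CSF1R and ITGAX rose again in the combination to 55.5 and 46.7 CPM, and PRKCQ fell from 10.9 to 8.16 and 5.49 CPM.

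Bone genes known as RUNX2 targets mostly lay below the filter in these cells. Of 14 genes, 3 were at 0 in all libraries and 3 were tested, of which 1 was higher and 1 lower after MI-503 (background 22.0% and 29.3%). In the combination, 2 were higher and 1 lower against DMSO (background 31.7% and 32.8%), with and without combination replicate 1. Against MI-503, 2 were higher and the other did not pass the test (background 23.6% and 23.8%), and 1 was higher without combination replicate 1. VEGFA, which many cell types express, rose from 157 CPM ± 6.48 (SD, n = 4) to 187 ± 4.69 (SD, n = 4) and 216 ± 13 (SD, n = 3), so that it went opposite to RUNX2 (edgeR adjusted p = 1.97e-07 for the combination against DMSO). SPP1, which encodes osteopontin, was between 0.405 and 1.42 CPM in DMSO and at most 0.201 CPM in the treated libraries, close to what a count of 0 allows. COL1A1, a collagen gene, stayed below 1 CPM in every library, at 0.142 to 0.597 CPM in DMSO and 0.632 to 0.992 CPM in the combination (edgeR adjusted p = 0.00808).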

How the data were processed

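Poly(A) RNA of 11 MOLM-13 libraries (TruSeq kit, paired reads) was processed by the authors to raw fragment counts per gene, deposited without normalization. The submitters' processing notes name Trimmomatic 0.39, STAR 2.7.10a, featureCounts 2.0.1, DESeq2 and hg38. Per the file headers, exons of a RefSeq annotation were counted without strand, and fragments on several genes or places were dropped. The filter applied to alignments before counting was not stated. The joined table and the single-library files differed in 0 cells. Deposited tables of the authors' own comparisons (mean counts, log2 fold changes, errors and p-values) were not used.

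Groups followed the labels. Members and gene lists were chosen with earlier results of these data known. Of 38557 genes, 11740 had no count and 14683 passed filterByExpr (minimum count 10, minimum total 15). edgeR 4.0.16 (R 4.3.3) fitted all 11 libraries with 1 mean per group and TMM factors (0.956 to 1.06) (8 residual degrees of freedom, biological coefficient of variation 6.14%). The quasi-likelihood test was two-sided, Benjamini-Hochberg adjusted over all tested genes, and called at an adjusted p under 0.05. The script was tested on simulated data. Alternatives used RLE or upper-quartile factors, other filters, limma-voom (limma 3.58.1), DESeq2 1.42.0, a fit of only 2 groups, a replicate block, a stricter threshold and each library left out. Named in the text were all members, the 3 list genes with the smallest adjusted p in each comparison, and the 2 genes most correlated with each member. A gene of these lists is not reported here. Genes at 0 or at the margin of the rule (PRKCQ, MPO, TAL1, GATA1 and ERG) were named after their values were seen. The same holds for the myeloid markers CEBPA, LYZ, FCGR1A and SPI1. Transcript lengths came from the RefSeq table and, as an alternative chosen after seeing the data, from GENCODE MANE Select.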

Additional observations from a re-analysis of the deposited data

How the results depend on the processing

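Over 20 alternatives, 352 of 360 member log2 fold changes kept direction and call. CBFA2T3 in the combination against DMSO kept its direction and lost its call in 6 alternatives, which lowered the members called higher there from 2 to 1, with only the 2 groups compared and with an adjusted p under 0.01 as threshold, and over the fits without 1 library (range 1 to 2). CBFB in the combination against MI-503 (edgeR adjusted p = 0.0136) was lost at the 0.01 threshold. RUNX1 after MI-503, which was not called, changed sign to 0.003 with the stricter filter of at least 5 CPM in 3 libraries. All 120 counts of genes called (higher and lower in 3 comparisons under 20 alternatives) stayed within 1.5 times of the reported ones, but upper-quartile factors moved the share of higher calls after MI-503 from 42.9% to 54.2%, and the split without MI-503 + PR-957 replicate 1 was 50.9%. The MANE Select length, an alternative chosen after seeing the data, moved the RUNX1 level in DMSO from 19.3 to 39.1 CPM per kb. In deviations from their group means, same-numbered libraries correlated at −0.102 to 0.144 in 10 pairs. Differently numbered libraries were not compared, so these values cannot show whether the numbers pair libraries. With the replicate block, 2 members were called higher and 2 lower after MI-503, as without it, and no member's call changed. Depth was not limiting for the 6 expressed members, with at least 427 counts in every library.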
